A study of Mus musculus with 9 samples.

Results

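The genes described here are those of the proteasome, the protease that degrades most ubiquitin-tagged proteins, in a mouse melanoma line in which the peroxisomal enzyme gene Decr2 was knocked down. Members were the rows of the deposited table whose gene name begins with Psma, Psmb, Psmc, Psmd, Psme, Psmf or Psmg followed by a digit, without Psmb8 and Psmb9. This rule took 45 of the 10762 genes of the table and used no measured value. By their known roles, 15 encode the core particle, 17 the cap, 5 activators or an inhibitor and 7 assembly factors. The remaining member, Psmc3ip, shares only its name with the complex: its product binds the ATPase encoded by Psmc3 and acts in meiotic recombination.

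The libraries came from B16.SIY, a C57BL/6 melanoma line grown in culture, with the model antigen SIY expressed as a fusion to the fluorescent protein dsRED. All 3 groups had been infected with a lentivirus and selected as stable lines with puromycin, and each was measured in 3 libraries, numbered 0, 1 and 2. The groups were Decr2 shRNA1, Decr2 shRNA2 and a control shRNA, where an shRNA is a short hairpin RNA that silences its target by RNA interference. The labels name neither clones nor separate cultures, so a p-value covers only how far the libraries of a group differ, possibly for technical reasons, and every group is 1 stable line. The table codes the Decr2 columns without naming the hairpin. The codes were matched to shRNA1 and shRNA2 through the comparisons headed by the authors in the same table, and if those headings were exchanged, the hairpin names here would be exchanged too.

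The core particle is a barrel of stacked rings: outer alpha rings form the gate and inner beta rings hold the proteolytic sites. The cap binds ubiquitin chains through receptors, removes the chains and threads the unfolded substrate into the core with a ring of ATPases. Activators of the Psme family open the core gate without ATP, and the activator made of the Psme1 and Psme2 products, together with interferon-inducible beta subunits such as Psmb10, shapes the peptides presented to T cells on MHC class I molecules. In melanoma cells, as in other nucleated cells, these peptides are what cytotoxic T cells recognise.

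Decr2, the targeted gene, had log2 values of 2.87, 2.51 and 3.18 with shRNA1 and of 0.84, 1.18 and 1.55 with shRNA2, against 3.96, 4.10 and 3.71 with the control hairpin. It fell by 1.07 with shRNA1 (SE 0.23, limma adjusted p = 0.0195) and fell by 2.73 with shRNA2 (SE 0.23, adjusted p = 0.000568), with no overlap between the groups. The call with shRNA1 was lost without control replicate 1 or 2 or shRNA1 replicate 1. The libraries were alike in scale, with medians between 5.35 and 5.38, and the values raised to the power of 2 summed to between 969465 and 997650 in the hairpin libraries and between 1014944 and 1045849 in the controls. Read depth is unknown. All 10 listed melanocyte markers were measured, with a summed level (of the values raised to the power of 2) of 13620 to 19473 with shRNA1, 13532 to 23527 with shRNA2 and 17840 to 20249 with control. Of 44 markers of other cell types 5 were measured, with sums of 30.8 to 33.4 with shRNA1, 27.2 to 30.3 with shRNA2 and 25.8 to 38.7 with control. No marker passed in any comparison, and their part in the results was not tested.

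Among the members, the largest changes that passed lay in 1 activator. Psme1 and Psme2 were higher with each Decr2 hairpin than with the control hairpin, by 0.42 and 0.70 on the log2 scale with shRNA1 and by 0.37 and 0.60 with shRNA2. The lid subunit gene Psmd7 fell with each hairpin, by 0.30 with shRNA1 and by 0.34 with shRNA2. In the mean of both hairpins 42 of 45 members, Psmd7 among them, had a 95% interval within 0.5 of zero on the log2 scale, and the other 3 were Psme1, Psme2 and Psmb10. Most of the small differences pointed down, with a median log2 fold change of -0.17 in the cap and -0.06 in the core. The core value is close to the median of -0.05 over all genes whose mean level lies above that of the median gene. In bulk RNA, fewer cells expressing a gene and less RNA per cell cannot be told apart.

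With shRNA1, 2 members rose (Psme1 and Psme2) and 2 fell (Psmd7 and Psme3), which is 4 of 45 against 12.4% of all genes called (limma, adjusted p under 0.05 over all 10762 genes; 6.92% of genes higher and 5.49% lower). With shRNA2, 2 rose (Psme1 and Psme2) and 2 fell (Psmd6 and Psmd7), against 12.9% of all genes called (7.27% higher and 5.67% lower). For the mean of both hairpins, the same pair rose and 4 fell (Psmd6, Psmd7, Psmd12 and Psme3), against 17.6% of all genes called (9.69% higher and 7.89% lower). Counted in both directions together, the share of members called was below that of all genes in each of these comparisons. Psme1, Psme2 and Psmd7 were called with each hairpin in the same direction, 3 of 45 members beside 7.55% of all genes (4.54% higher and 3.01% lower). The 2 single-hairpin comparisons share their control libraries, so a call in both is not an independent repeat. In the authors' deposited table the called members were the same: Psme1 and Psme2 higher with each hairpin, Psmd7 and Psme3 lower with shRNA1, and Psmd6 and Psmd7 lower with shRNA2.

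**Figure D1:**
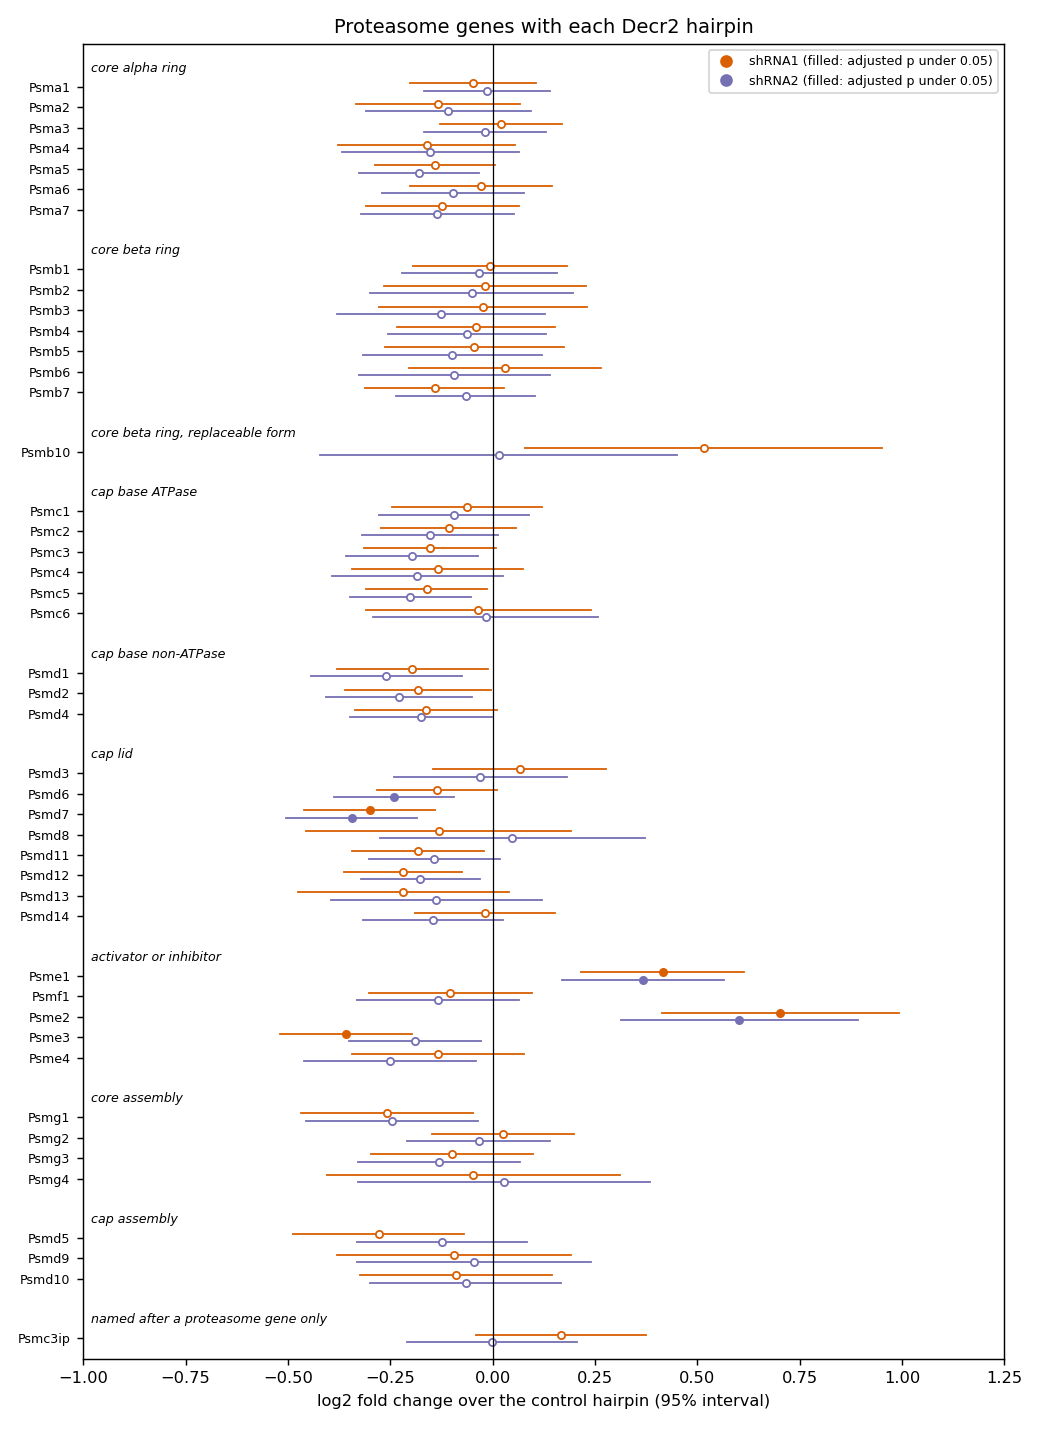
Log2 fold change of each of the 45 members over the control hairpin, with shRNA1 in orange above shRNA2 in purple, grouped by role; lines are 95% intervals from limma and filled points passed at an adjusted p under 0.05. Psme1 and Psme2 lie to the right of zero and most cap genes slightly to the left, while Psmb10 differs from zero with shRNA1 at the level of its interval but does not pass.

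Libraries with the same number varied together, with correlations of their deviations from the group means between 0.13 and 0.64 over the 9 pairs, so the fit with the library number as a replicate block is given where it moves a count. With the block, 3 members rose and 4 fell with shRNA1 (24.6% of all genes called, 13.4% higher and 11.2% lower), Psmb10 joining the risen genes and Psmd12 and Psmd5 the fallen ones. With shRNA2, 2 rose and 3 fell (24.0% of all genes called, 13.4% higher and 10.6% lower), and between the hairpins none passed (1.87% of all genes called, 0.827% higher and 1.04% lower). For the mean of both hairpins, 2 rose and 10 fell with the block (30.3% of all genes called, 16.2% higher and 14.1% lower). Of those 10, 8 were cap genes (Psmc3, Psmc4, Psmc5, Psmd1, Psmd2, Psmd6, Psmd7 and Psmd12), beside Psme3 and Psmg1. Scaling matters to the same count: with each library centred on its median, 2 members rose and 8 fell in the mean of both hairpins, in place of 2 and 4 (18.1% of all genes called, 9.15% higher and 8.93% lower).

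The activator genes moved in opposite directions, Psme1 and Psme2 up and Psme3 down. Psme1 and Psme2 encode the alpha and beta subunits of a ring that caps the core and is inducible by interferon gamma. Psme1 (ENSMUSG00000022216) lies on the plus strand at chr14:55578123-55581529 and Psme2 (ENSMUSG00000079197) on the minus strand at chr14:55587441-55591113 in GRCm38, with 1 protein-coding gene, Emc9, between them. Their promoters are shown because both genes rose together. The RefSeq windows (GRCm38.p6, 250 bases before to 50 after the annotated start, 5′ to 3′ on the gene's strand) are chr14:55578244-55578543 on the plus strand for Psme1 and chr14:55591052-55591351 on the minus strand for Psme2. Capitals mark the only match to any of 8 searched motifs, an interferon-stimulated response element on the reverse strand, from base 9 to base 18 after the Psme1 start. RefSeq lists 2 windows for Psme2, and the window printed, in which no motif matched, is the first one listed.
Psme1: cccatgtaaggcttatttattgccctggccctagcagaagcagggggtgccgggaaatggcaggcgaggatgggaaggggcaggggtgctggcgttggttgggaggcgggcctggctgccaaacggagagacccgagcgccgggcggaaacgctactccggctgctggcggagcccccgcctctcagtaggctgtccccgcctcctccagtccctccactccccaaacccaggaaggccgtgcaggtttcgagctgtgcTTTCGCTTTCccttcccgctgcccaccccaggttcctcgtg
Psme2: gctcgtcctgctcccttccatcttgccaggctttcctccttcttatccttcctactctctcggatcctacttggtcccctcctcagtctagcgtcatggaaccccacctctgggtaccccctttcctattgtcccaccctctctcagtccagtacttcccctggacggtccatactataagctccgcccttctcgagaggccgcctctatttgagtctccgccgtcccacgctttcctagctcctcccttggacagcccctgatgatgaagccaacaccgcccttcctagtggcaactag

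Psme1 had log2 values of 5.77, 5.52 and 5.67 with shRNA1 and of 5.61, 5.68 and 5.52 with shRNA2, against 5.31, 5.14 and 5.26 with the control hairpin. All 6 hairpin libraries lay above all 3 control libraries, and the hairpin groups overlapped each other. The log2 fold change was 0.42 with shRNA1 (SE 0.09, limma adjusted p = 0.0194), or 133% of the control level (95% interval 116% to 153%), and 0.37 with shRNA2 (SE 0.09, adjusted p = 0.0283), or 129% (112% to 148%).

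Psme2 had log2 values of 5.49, 5.04 and 5.16 with shRNA1 and of 5.15, 5.09 and 5.15 with shRNA2, against 4.72, 4.39 and 4.49 with the control hairpin. Here too the hairpin libraries all lay above the controls, the library numbered 0 being the highest of its group with shRNA1 and with control. The log2 fold change was 0.70 with shRNA1 (SE 0.13, limma adjusted p = 0.0115), or 163% of the control level (95% interval 133% to 199%), and 0.60 with shRNA2 (SE 0.13, adjusted p = 0.0186), or 152% (124% to 186%). A near-identical coding copy, Psme2b, matches 82.5% of the Psme2 transcript at 99.4% identity, so reads of both could be assigned to either, and the Psme2 value is uncertain to that extent.

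The single-hairpin calls rest in part on single libraries, while the fold changes stayed close. The alternatives counted here do not include a minimum log2 fold change of 0.5, which Psme1 did not reach with either hairpin. Of 16 alternatives, the Psme1 call was lost under 4 with shRNA1 and 5 with shRNA2, and the Psme2 call under 2 and 4. Leaving out shRNA2 replicate 1 or 2 was among those for both genes with shRNA2. Without control replicate 1, neither gene passed with shRNA1 (log2 fold change 0.37 for Psme1 and 0.63 for Psme2, limma adjusted p = 0.0869 and 0.0559) or with shRNA2 (0.32 and 0.53, adjusted p = 0.116 and 0.0818), and without control replicate 2 the single-hairpin calls were lost as well. In the mean of both hairpins Psme2 passed under all 15 settings tried (log2 fold change 0.58 to 0.75), and Psme1 passed under 14 of them, failing without control replicate 1 (adjusted p = 0.0631).

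Psme3 encodes the activator of the nucleus, a ring of identical subunits that is related to Psme1 and Psme2 but is not induced by interferon gamma. Its promoter is shown for contrast, at chr11:101315963-101316262 on the plus strand, with capitals on both matches to the ETS site CCGGAAG, from base 107 to base 101 before the start and, on the reverse strand, from base 2 to base 8 after it. A CCAAT box, not capitalised, also matched on the reverse strand.
Psme3: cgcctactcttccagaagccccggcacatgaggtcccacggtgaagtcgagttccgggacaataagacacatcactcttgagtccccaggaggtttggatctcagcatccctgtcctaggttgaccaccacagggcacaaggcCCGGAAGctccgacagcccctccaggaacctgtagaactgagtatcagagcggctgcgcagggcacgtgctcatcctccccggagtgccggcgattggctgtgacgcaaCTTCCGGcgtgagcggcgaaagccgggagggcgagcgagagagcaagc

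Psme3 had log2 values of 7.74, 7.94 and 7.92 with shRNA1 and of 8.01, 8.05 and 8.04 with shRNA2, against 8.22, 8.22 and 8.24 with the control hairpin. The 6 hairpin libraries all lay below the controls, and those of shRNA1 below those of shRNA2. Psme3 fell by 0.36 with shRNA1 (SE 0.07, limma adjusted p = 0.0153) and was 0.19 below control with shRNA2 (fold change -0.19, SE 0.07, adjusted p = 0.114), which did not pass. The difference of shRNA2 over shRNA1 was 0.17 (SE 0.07, adjusted p = 0.469). Without control replicate 1 or 2, the fall with shRNA1 no longer passed (adjusted p = 0.0657 and 0.0712).

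The other activator gene and the inhibitor gene did not pass with either hairpin. Psme4, whose large product caps the core in the nucleus and in spermatogenesis, had log2 fold changes of -0.13 with shRNA1 and -0.25 with shRNA2. Psmf1, which encodes an inhibitor that binds the core, had -0.10 with shRNA1 and -0.13 with shRNA2.

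**Figure D2:**
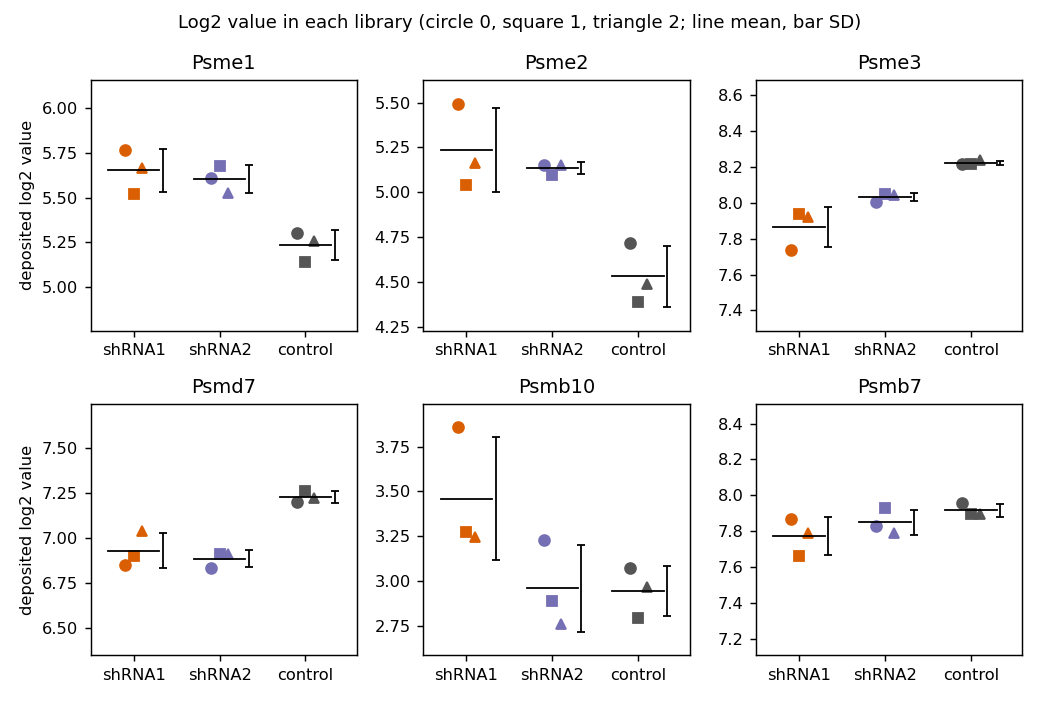
Deposited log2 value of 6 members in each library (circle, library 0; square, 1; triangle, 2) with shRNA1, shRNA2 and control from left to right, each group with its mean (line) and SD (bar, n = 3). Each vertical axis spans its own range of levels; the hairpin libraries lie above the controls for Psme1 and Psme2 and below them for Psme3 and Psmd7, whereas Psmb10 with shRNA2 and Psmb7 with shRNA2 overlap their controls.

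No gene of the core particle passed in any comparison (limma, 0 of 15 in each; the count at an unadjusted p under 0.05 was 1 with shRNA1, 1 with shRNA2 and 1 in the mean of both hairpins, against 28.7%, 29.3% and 33.2% of all genes). The median log2 fold change in the mean of both hairpins was -0.12 over the 7 alpha genes and -0.05 over the 7 constitutive beta genes. The alpha genes ran from -0.16 (Psma5) to 0.00 (Psma3) and the beta genes from -0.10 (Psmb7) to -0.02 (Psmb1). Over all 15 core genes the interval of the fold change stayed within 0.5 of zero for all but Psmb10.

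Psma5, an alpha ring subunit, was the core gene with the smallest adjusted p in the mean of both hairpins. It had log2 values of 7.20, 7.10 and 7.19 with shRNA1 and of 7.10, 7.18 and 7.10 with shRNA2, against 7.33, 7.27 and 7.32 with the control hairpin. It was the only core gene with all 6 hairpin libraries below all 3 controls. Its log2 fold change was -0.14 with shRNA1 (SE 0.06, limma adjusted p = 0.188) and -0.18 with shRNA2 (SE 0.06, adjusted p = 0.101), and neither passed. Psma5 and 6 other core or cap genes (Psma4, Psmb3, Psmb5, Psmc1, Psmd2 and Psmd11) have noncoding copies of at least 95% identity over at least 50% of the transcript, so their values are uncertain where reads could be split.

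The beta ring holds a pair of alternative subunits among the members. Psmb7 encodes the constitutive subunit with trypsin-like activity, and Psmb10 its interferon-inducible replacement in the immunoproteasome. Psmb10 had log2 values of 3.86, 3.28 and 3.25 with shRNA1 and of 3.23, 2.89 and 2.76 with shRNA2, against 3.07, 2.79 and 2.97 with the control hairpin. All 3 shRNA1 libraries lay above the controls and those of shRNA2 overlapped them, with library 0 the highest in every group.

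Psmb10 had a log2 fold change of 0.52 with shRNA1 (SE 0.19, limma adjusted p = 0.117) and of 0.01 with shRNA2 (SE 0.19, adjusted p = 0.971). With the replicate block the rise with shRNA1 passed (SE 0.13, adjusted p = 0.0214). The difference of shRNA2 over shRNA1 was -0.50 (95% interval -0.94 to -0.06, adjusted p = 0.418, and 0.0975 with the replicate block), so a difference between the hairpins was not established. Psmb10 had the widest spread of all members, with a pooled SD of 0.26 against a median of 0.09 over the members.

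Psmb7 had log2 values of 7.87, 7.66 and 7.79 with shRNA1 and of 7.83, 7.93 and 7.79 with shRNA2, against 7.96, 7.89 and 7.89 with the control hairpin. The shRNA1 libraries lay below the controls and the shRNA2 libraries overlapped them. Its log2 fold change was -0.14 with shRNA1 (SE 0.08, limma adjusted p = 0.252) and -0.07 with shRNA2 (SE 0.08, adjusted p = 0.617). No values of the interferon-inducible subunit genes Psmb8 and Psmb9 were available here, so they were not analysed.

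Of the 17 cap genes among the members, 3 fell in the mean of both hairpins (Psmd6, Psmd7 and Psmd12, all of the lid). None of the 17 rose, beside 7.89% of all genes lower and 9.69% higher. Sem1, a lid gene outside the naming rule, rose in that comparison and is described further on. The median log2 fold change over the cap was -0.15 with shRNA1, -0.18 with shRNA2 and -0.17 in the mean of both hairpins, and 16 of 17 genes had a negative value in each, the exception being Psmd3 or Psmd8. The lid is a horseshoe of scaffold subunits around the deubiquitinase Psmd14, which cuts the ubiquitin chain from the substrate.

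Psmd7 (ENSMUSG00000039067, minus strand, chr8:107580381-107588464 in GRCm38) encodes the lid subunit that pairs with Psmd14. It had log2 values of 6.85, 6.90 and 7.04 with shRNA1 and of 6.83, 6.91 and 6.91 with shRNA2, against 7.20, 7.26 and 7.23 with the control hairpin. All 6 hairpin libraries lay below all 3 controls. Psmd7 fell by 0.30 with shRNA1 (SE 0.07, limma adjusted p = 0.0273), to 81.2% of control (95% interval 72.7% to 90.7%), and by 0.34 with shRNA2 (SE 0.07, adjusted p = 0.0167), to 78.8% (70.5% to 88.0%). Without control replicate 1 the calls were lost (adjusted p = 0.114 with shRNA1 and 0.0764 with shRNA2), and likewise without control replicate 2 (0.101 and 0.0672), while the fold changes stayed between -0.35 and -0.28. Each of the 2 Psmd7 calls was lost under 4 of 16 alternatives in all. Its partner Psmd14 had -0.02 with shRNA1 and -0.14 with shRNA2, and neither passed.

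Psmd6 and Psmd12 encode scaffold subunits of the lid. The Psmd6 promoter is shown because it holds the ETS site found in many member promoters, in capitals from base 45 to base 39 before the start, in the window chr14:14120896-14121195 on the minus strand.
Psmd6: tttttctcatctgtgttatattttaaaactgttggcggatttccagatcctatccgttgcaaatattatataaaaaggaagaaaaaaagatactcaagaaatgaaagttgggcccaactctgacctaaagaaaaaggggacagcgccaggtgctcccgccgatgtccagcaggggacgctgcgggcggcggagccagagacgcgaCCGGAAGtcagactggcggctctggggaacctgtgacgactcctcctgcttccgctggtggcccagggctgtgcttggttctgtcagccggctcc

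Psmd6 had log2 values of 6.57, 6.64 and 6.66 with shRNA1 and of 6.47, 6.57 and 6.51 with shRNA2, against 6.72, 6.80 and 6.75 with the control hairpin. Psmd12 had 7.07, 7.02 and 7.14 with shRNA1 and 7.13, 7.16 and 7.07 with shRNA2, against 7.32, 7.29 and 7.28 with the control hairpin. For both genes the hairpin libraries lay below the controls without overlap. In the mean of both hairpins Psmd6 fell by 0.19 (SE 0.06, limma adjusted p = 0.0472) and Psmd12 by 0.20 (SE 0.06, adjusted p = 0.0386). These calls lie close to the threshold: that of Psmd6 was lost under 9 of 15 settings and that of Psmd12 under 8.

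The base of the cap carries a ring of 6 ATPases and larger non-ATPase subunits. None of these 9 genes passed in the 4 comparisons, with adjusted p-values in the mean of both hairpins from 0.0553 (Psmd1) to 0.891 (Psmc6). The median log2 fold change in the mean of both hairpins was -0.14 over the ATPase genes and -0.21 over Psmd1, Psmd2 and Psmd4. Psmc5, an ATPase subunit, had log2 values of 7.60, 7.53 and 7.64 with shRNA1 and of 7.50, 7.62 and 7.54 with shRNA2, against 7.71, 7.77 and 7.78 with the control hairpin. Psmd1, a scaffold of the base, had 7.97, 8.14 and 8.24 with shRNA1 and 7.98, 8.08 and 8.09 with shRNA2, against 8.27, 8.36 and 8.30 with the control hairpin. In both genes the hairpin libraries lay below the controls.

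The log2 fold change of Psmc5 was -0.16 with shRNA1 (SE 0.07, limma adjusted p = 0.143) and -0.20 with shRNA2 (SE 0.07, adjusted p = 0.0751), and that of Psmd1 was -0.20 (SE 0.08, adjusted p = 0.154) and -0.26 (SE 0.08, adjusted p = 0.069). With the replicate block both fell in the mean of both hairpins (adjusted p = 0.0384 for Psmc5 and 0.0181 for Psmd1). Psmd2, the base subunit that docks shuttle proteins, and Psmd4, a ubiquitin receptor, had fold changes of -0.21 and -0.17 in the mean of both hairpins.

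None of the 7 assembly genes passed in any comparison (limma; at an unadjusted p under 0.05 the count was 2 with shRNA1, 1 with shRNA2 and 2 in the mean of both hairpins, against 28.7%, 29.3% and 33.2% of all genes). Their median log2 fold change in the mean of both hairpins was -0.08. Psmg1, whose product pairs with that of Psmg2 to start the alpha ring, had log2 values of 4.49, 4.56 and 4.58 with shRNA1 and of 4.52, 4.71 and 4.43 with shRNA2, against 4.73, 4.83 and 4.85 with the control hairpin. The hairpin libraries lay below the controls, by a narrow margin for the shRNA2 library numbered 1. Its log2 fold change was -0.26 with shRNA1 (SE 0.09, limma adjusted p = 0.105) and -0.25 with shRNA2 (SE 0.09, adjusted p = 0.116). Its partner Psmg2 had 0.03 with shRNA1 and -0.03 with shRNA2.

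Psmd5 encodes a chaperone that holds part of the ATPase ring before the cap is built. It had log2 values of 6.16, 5.86 and 6.14 with shRNA1 and of 6.15, 6.23 and 6.24 with shRNA2, against 6.27, 6.32 and 6.40 with the control hairpin. All hairpin libraries lay below the controls, the shRNA1 library numbered 1 by the widest margin. The log2 fold change was -0.28 with shRNA1 (SE 0.09, limma adjusted p = 0.0826, and 0.0451 with the replicate block) and -0.12 with shRNA2 (SE 0.09, adjusted p = 0.42). Psmd9 and Psmd10, the other ATPase chaperones, had fold changes between -0.10 and -0.05 with each hairpin, and Psmg3 and Psmg4 between -0.13 and 0.03.

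Psmc3ip had log2 values of 4.87, 4.91 and 5.05 with shRNA1 and of 4.66, 4.88 and 4.78 with shRNA2, against 4.85, 4.80 and 4.69 with the control hairpin. Its log2 fold change was 0.17 with shRNA1 (SE 0.09, limma adjusted p = 0.269) and -0.00 with shRNA2 (SE 0.09, adjusted p = 0.998). The shRNA1 libraries lay above the controls by a narrow margin, and those of shRNA2 overlapped them.

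Read across the roles, the values lay mostly below control. Against control, 39 of 45 members (86.7%) had a negative fold change in the mean of both hairpins, with a median of -0.10, whereas 50.1% of all genes did, with a median of -0.00. Part of that gap moves with level: 36 of the members lie above the median gene, and of all 5381 genes above it 61.5% had a negative fold change, with a median of -0.05. Among the 36 members above it, 33 were negative (91.7%), with a median of -0.12. By role the medians were -0.06 in the core, -0.17 in the cap, -0.12 among activators and inhibitor, and -0.08 among the assembly genes. Above the median gene lie 14 of 15 core genes and all 17 cap genes, but only 1 of 7 assembly genes. The core median is thus close to the -0.05 of all genes above the median gene. Differences between the roles were not tested.

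**Figure D3:**
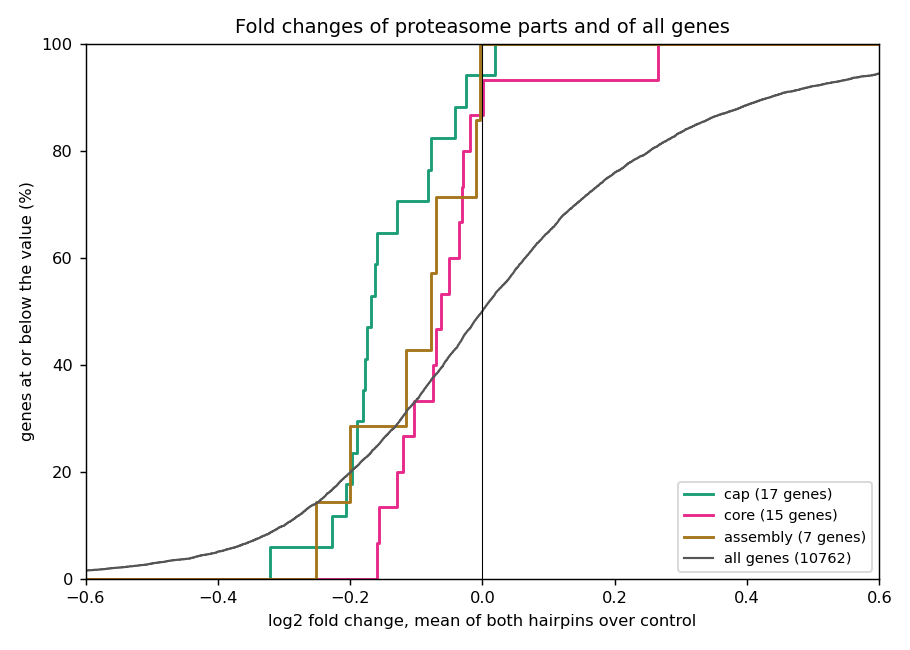
Cumulative share of genes (percent) at or below each log2 fold change, mean of both hairpins over control, for cap, core and assembly genes and for all 10762 genes of the table; the horizontal axis ends at 0.6 in either direction, beyond which some of all genes lie. The cap curve lies left of the core curve, with medians of -0.17 and -0.06, and 16 of 17 cap genes and 13 of 15 core genes fall left of zero.

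All 6 hairpin libraries lay below all 3 controls in 13 of 45 members (28.9%), against 10.9% of all genes: Psma5, Psmc3, Psmc5, Psmd1, Psmd2, Psmd4, Psmd6, Psmd7, Psmd11, Psmd12, Psme3, Psmg1 and Psmd5. These were 9 of 17 cap genes, 1 of 15 core genes, 2 of 7 assembly genes and Psme3. They lay above all controls in 2 members, Psme1 and Psme2, against 12.0% of all genes. With shRNA1 alone, the libraries lay below the controls in 15 members (16.6% of all genes) and above them in 4 (17.3% of all genes). With shRNA2 alone, they lay below in 20 members (18.7% of all genes), 12 of them in the cap, and above in 2 (20.1% of all genes). Set against the control library of the same number, all 6 pairs were lower in 16 members, 12 of them in the cap and 1 in the core, against 19.0% of all genes. All 6 pairs were higher in 2, against 20.3% of all genes. The shRNA1 library numbered 0, the shRNA2 library numbered 1 or all libraries numbered 0 changed the core count: without each of them 3 core genes lay below the controls. Groups separate more easily with fewer libraries. The share of all genes was not counted there, and the 10.9% does not apply.

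The role averages were set out by library. Averaged over the 15 core genes and set to the control mean, the shRNA1 libraries stood at 0.10, -0.13 and -0.03 and the shRNA2 libraries at -0.08, -0.01 and -0.16, against 0.03, -0.03 and -0.01 in the control libraries. Psmb10, 1 of the 15, stood at 0.91, 0.33 and 0.30 with shRNA1 and raised the average there. Without it, the shRNA1 libraries stood at -0.05, -0.17 and -0.04 over the 7 alpha genes. Over the 7 constitutive beta genes they stood at 0.13, -0.17 and -0.07. In each of these rings the hairpin libraries still overlapped the controls. Averaged over the 17 cap genes, the shRNA1 libraries stood at -0.13, -0.19 and -0.10 and the shRNA2 libraries at -0.16, -0.13 and -0.18, against 0.00, 0.01 and -0.01 in the controls. The hairpin libraries thus overlapped the controls in the core average and not in the cap average. In the shRNA1 group library 0 was the highest in 13 of 15 core genes and library 1 the lowest in 13, so core genes moved up and down together between libraries of 1 group. The assembly average stood at -0.03, -0.24 and -0.09 with shRNA1 and at -0.14, 0.01 and -0.13 with shRNA2, against -0.04, 0.00 and 0.04 with control, and overlapped.

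**Figure D4:**
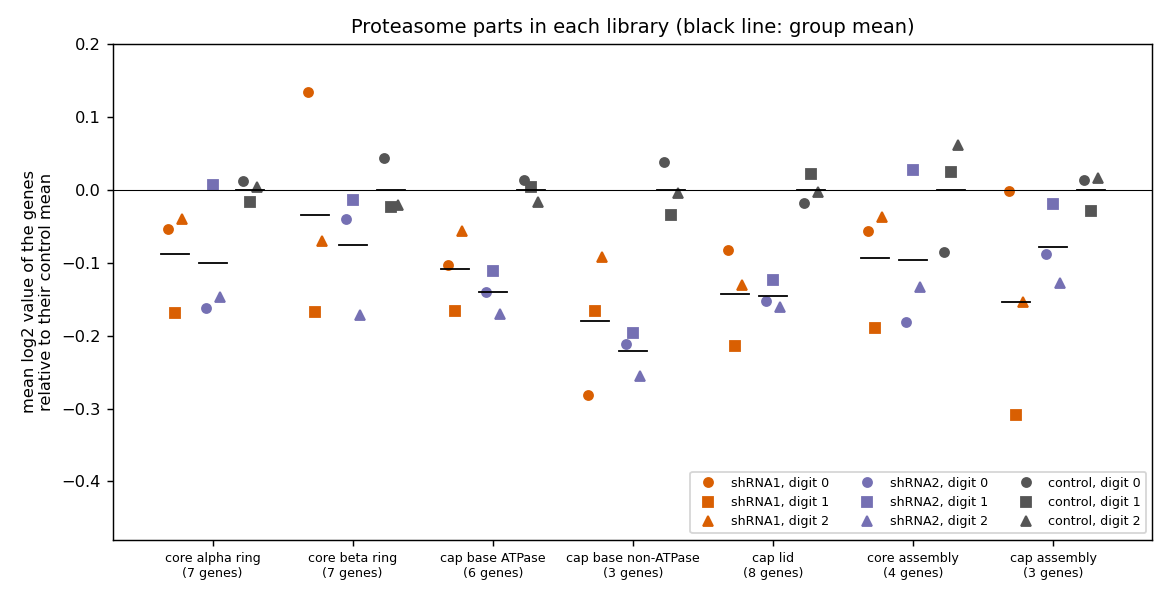
Mean log2 value over the genes of each role in each library, relative to the mean of the 3 control libraries, with shRNA1, shRNA2 and control from left to right within a role; black lines are group means. The ATPase, non-ATPase and lid groups of the cap have their hairpin libraries below the controls, while those of cap assembly overlap them. In the core beta ring the shRNA1 library numbered 0 stands at 0.13 and the library numbered 1 at -0.17.

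Between the hairpins no member passed (limma, shRNA2 over shRNA1, 0 of 45, against 0.455% of all genes, 0.223% higher and 0.232% lower). At an unadjusted p under 0.05 there were 2, Psmb10 lower with shRNA2 and Psme3 higher, against 10.0% of all genes, and the intervals of 43 of 45 members stayed within 0.5 of zero. For Psme1 the difference was -0.05 (95% interval -0.25 to 0.15), for Psme2 -0.10 (-0.39 to 0.19) and for Psmd7 -0.04 (-0.20 to 0.12).

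The motif counts over the member promoters give the sequence side. RefSeq windows were found for 38 of 45 members and searched on both strands. Psmd7, which fell with each hairpin, had no window and was not searched. For the motifs, shares of all genes are of the 27025 genes with a window, whether or not they were measured here. The ETS site CCGGAAG was in 15 of 38 member promoters (39.5%) against 9.93% of all genes, among them those of Psmd6, Psmd12 and Psme3, which fell in the mean of both hairpins, and of 12 members that did not pass. The interferon-stimulated response element was in 5 (13.2%) against 3.99%: Psme1, Psmb3, Psmd4, Psmd9 and Psmg4, of which Psme1 alone rose. The interferon gamma activated site TTCNNNGAA was in 2 (5.26%) against 9.55%.

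The antioxidant response element TGACNNNGC was in 6 (15.8%) against 14.0%, the CCAAT box CCAAT in 13 (34.2%) against 41.1%, and the C/EBP-ATF response element TGATGNAAN in 1 (2.63%) against 4.50%. The cAMP response element TGACGTCA was in 0 against 2.03% and the heat shock element in 0 against 0.662%. A match describes letters only, and matches of different motifs may overlap.

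Genes that work with the proteasome but carry other names were taken from a list of 47, of which 41 were measured. Of these, 4 rose and 4 fell in the mean of both hairpins, with a median log2 fold change of -0.10, against 9.69% of all genes higher and 7.89% lower. With shRNA1, 2 rose and 2 fell (6.92% of all genes higher and 5.49% lower), and with shRNA2, 3 rose and 5 fell (7.27% higher and 5.67% lower). Nfe2l1, the transcription factor that raises proteasome gene expression when proteasome activity is short, had log2 values of 7.95, 8.44 and 8.30 with shRNA1 and of 7.89, 8.35 and 8.36 with shRNA2, against 7.67, 7.51 and 7.60 with the control hairpin. All hairpin libraries lay above the controls. It rose by 0.64 with shRNA1 (SE 0.15, limma adjusted p = 0.0293) and by 0.61 with shRNA2 (SE 0.15, adjusted p = 0.0335), and both calls were lost without any 1 of the 3 control libraries, and under 5 and 6 of 16 alternatives in all.

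Stat3, a transcription factor activated by cytokines, rose by 0.91 with shRNA1 (SE 0.20, limma adjusted p = 0.0232) and by 1.08 with shRNA2 (SE 0.20, adjusted p = 0.0128). The Stat3 calls were lost under 5 of 16 alternatives with shRNA1 and 3 of 16 with shRNA2, those without control replicate 1 or 2 among them. Ube3c, a ubiquitin ligase bound to the cap, fell by 0.25 with each hairpin (SE 0.07, adjusted p = 0.0426 with shRNA1 and 0.0383 with shRNA2). The Ube3c call with shRNA1 was lost without any 1 of the 9 libraries and under 11 of 16 alternatives in all, and that with shRNA2 under 8 of 16. Sem1, a small lid subunit not named with the others, rose by 0.31 in the mean of both hairpins (SE 0.08, adjusted p = 0.0326), a call lost under 6 of 15 alternatives, those without any 1 control library among them. Pomp, the factor that matures the core, had fold changes of -0.08 with shRNA1 and -0.10 with shRNA2, and Adrm1, a ubiquitin receptor of the base, -0.00 with shRNA1 and -0.18 with shRNA2, and none of these passed.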

How the data were processed

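Messenger RNA was sequenced in 9 libraries, 3 in each of 3 groups taken from the sample titles. Per the submitters' processing notes, FastQC, kallisto and limma were used, without versions. The strand setting, annotation, build and low-level filter were not given in the sources used here. For each gene and library the authors deposited 1 log2 value, beside fold changes, t scores and p-values that compare either Decr2 hairpin with the control. The deposited log2 values carry no read totals, so depth is unknown and precision comes from the spread between libraries. No scaling to transcript length was assumed, and levels were not compared between genes beyond ranking them by mean level. The authors' deposited scores and p-values only describe their own table. The deposited fold changes lay within 0.05 of those recomputed here in 99.95% of genes with shRNA1 and 99.7% with shRNA2, against 26.6% and 26.3% with the hairpins exchanged. An unnamed column of 19 values was not used.

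Limma 3.58.1 in R 4.3.3 was fitted on the log2 values as deposited, over all 10762 genes and 9 libraries, with 1 mean per group and a variance prior that follows intensity (3.30 degrees of freedom, beside 6 residual). Benjamini-Hochberg adjustment ran over the whole table, and calls needed an adjusted p under 0.05. Each hairpin and the mean of both were set against control, and shRNA2 against shRNA1. Library numbers count as pairing, since deviations of same-numbered libraries correlated at 0.13 or more in all 9 pairs. The fit was tested on simulated data for the shRNA1 comparison over 10762 genes: 36% of 100 genes changed by 0.5 on the log2 scale and 81% of 100 changed by 1 were called, with 13 calls among the unchanged genes. The simulated noise was independent between libraries, so these rates do not cover the shared variation of same-numbered libraries.

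The members, roles, partner lists and tests were chosen with earlier results of these data known. Every member that passed in any comparison was named. Values in every library were given for members that passed with each hairpin, for Psme1, Psme2, Psmb10 and Psmb7, and, in a role with no such member, for the one with the smallest adjusted p in the mean of both hairpins. Library values of Psme3, Psmd6, Psmd12 and Nfe2l1 were added after they were seen. Coordinates are from GENCODE M21 on GRCm38 and may differ from the authors' build. Near-identical copies were sought with BLAST 2.17.0. Alternatives tried were the variance prior (no trend, robust), the replicate block, only the groups compared, centring on library medians, removal of the lowest 25% of genes, each library left out, the libraries numbered 0 left out, a minimum log2 fold change of 0.5 and omission of Psmc3ip. The count over same-numbered pairs, the signs of all members and the values over genes above the median level were added after seeing the data.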

Additional observations from a re-analysis of the deposited data

Results flagged for a closer look

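The difference in Decr2 between the Decr2 lines was larger than the spread between libraries: the log2 difference of shRNA2 over shRNA1 was -1.66 (SE 0.23, limma adjusted p = 0.0233). It passed under 7 of 15 alternatives and not under the other 8, among them only the groups compared and 7 of the 9 single libraries left out, with differences from -1.84 to -1.48 and adjusted p from 0.00952 to 0.137.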

How the results depend on the processing

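Counts of called members depended on the libraries used more than on the variance prior. The share of all genes called was counted only for the main fit, the replicate block and, in the mean of both hairpins, centred libraries. Under the other settings the counts of members cannot be set against all genes. With shRNA1 the count was 4 (2 higher and 2 lower); it was 7 with the replicate block, 2 with only the groups compared, 12 (3 higher and 9 lower) without the libraries numbered 0, 1 with a minimum log2 fold change of 0.5, and 0 to 6 when libraries were left out in turn. With shRNA2 the count was 4; it was 14 (2 higher and 12 lower) without the libraries numbered 0, 1 with the fold minimum, and 0 to 9 on leaving out each library. In the mean of both hairpins the count was 6; it was 12 (2 higher and 10 lower) with the replicate block, 10 with centred libraries, 20 (2 higher and 18 lower) without the libraries numbered 0, 1 with the fold minimum, and 1 to 11 on leaving out each library. The count with both hairpins was 3; it was 1 with only the groups compared, 7 without the libraries numbered 0, 1 with the fold minimum, and 0 to 4 on leaving out each library. Between the hairpins it was 0, and 1 without the libraries numbered 0. The replicate block, for which the library numbers give the pairing, changed no other count by over 1.5 times. Leaving out control replicate 1 or 2 gave 0 calls with each hairpin, as did leaving out shRNA2 replicate 1 or 2 in the shRNA2 comparison, and leaving out shRNA1 replicate 0 gave 9 calls in the shRNA2 comparison and 11 in the mean; the causes were not tested. The 13 members with all hairpin libraries below all controls became 20 without the libraries numbered 0. Groups separate more easily with fewer libraries, and the share of all genes without those libraries was not counted. The rise to 20 therefore says nothing particular about the members.

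Fold changes near zero changed sign. Psmb10 with shRNA2 ran from -0.119 (without shRNA2 replicate 0) to 0.114 (without shRNA2 replicate 2) when libraries were left out in turn, and was negative also without control replicate 1 (-0.0602) and without the libraries numbered 0 (-0.0553). Psmc3ip with shRNA2 ran from -0.0541 (without shRNA2 replicate 1) to 0.0553 (without shRNA2 replicate 0), was positive also without control replicate 0 (0.0345) or 1 (0.00946), and was 0.0904 without the libraries numbered 0. Adrm1 with shRNA1 ran from -0.0174 (without shRNA1 replicate 1) to 0.00883 (without shRNA1 replicate 2), and was positive also without control replicate 2 (0.00399). Over all members, 33 of 135 fold changes against control, in 18 members, had another sign under at least 1 alternative; none of these was called, and the largest was 0.0705 in size. The median half-width of the 95% interval was 0.17 over the members in the mean of both hairpins, wider in some genes and narrower in others.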
